A study of Mus musculus with 81 samples.

Results

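The comparison sets the embryonic Kupffer cells of the E14 liver against the yolk sac progenitor population A2 of E9.5, both from wild-type mice. It rests on 3 Kupffer samples and 3 A2 samples, chosen by their labels alone, 6 of the 80 samples of the series. Expression was measured on arrays after cell sorting, and the values are RMA signals on the log2 scale, in which 1 unit is a 2-fold difference. Other wild-type groups are used beside them, each with 3 samples: E8 erythro-myeloid progenitors, the E9.5 yolk sac population A1, E14 microglia from brain, E14 CD11bhigh macrophages from liver, and Kupffer cells of adults aged 6 weeks. From mice with an Irf8 knockout, the A2 population of E9.5 and the E14 Kupffer cells were used, again with 3 samples each. The labels name no strain, no knockout allele, no sorting markers for A2 or the Kupffer gate and no pooling of embryos. They give A2 the cell type of erythro-myeloid progenitors. Liver was digested with collagenase, dispase and DNase, while no digestion of the yolk sac is stated. The descriptions of the 3 E14 Kupffer samples repeat a single replicate number, as do those of the 3 E14 liver CD11bhigh samples, while their titles are numbered apart. Their numbers 1 to 3 serve only as names here. Nothing in the labels says that samples came from separate animals, so p-values measure the spread between samples and not between animals. That spread was pooled for each gene over the samples within all 27 groups of the series.

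Kupffer cells are the resident macrophages of the liver sinusoids. They take up aged red cells, recycle heme iron, clear lipids and debris from blood and catch microbes. Part of the fetal tissue macrophages descend from yolk sac progenitors that enter the blood and seed organs. The fetal liver they settle in is at that stage the main site of red cell formation, where macrophages sit at the centre of erythroblastic islands and swallow the nuclei that erythroblasts expel.

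The 3 A2 arrays correlated with each other at 0.978 to 0.984 over the genes tested, and the 3 Kupffer arrays at 0.980 to 0.983. Between the groups the correlation was 0.911 to 0.924. That is close to the 0.907 to 0.918 between E14 Kupffer cells and E14 microglia, and above the 0.878 to 0.892 between E14 and adult Kupffer cells. Array medians lay between 2.94 and 3.19 log2 over the whole series. In the limma fit of all 27 groups, 4373 of 17076 genes differed between A2 and E14 Kupffer cells at an adjusted p under 0.05 (25.6%). Of these, 1971 were higher (11.5% of genes tested) and 2402 lower (14.1%) at E14. The rises were the larger changes: 1226 genes rose and 726 fell by over 2-fold, and 93 rose and 0 fell by over 16-fold. With each array centred on its own median the split became 1631 higher and 3343 lower, as the median change over all genes moved from -0.06 to -0.18 log2, so small falls depend on the scaling. Below, values in brackets after a gene are the log2 change from A2 to E14 Kupffer cells ± its standard error from that fit. They passed the threshold unless an adjusted p is printed with them. Values of samples are given in the order of replicates 1, 2 and 3.

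Genes that mark Kupffer cells were nearly all switched up in this step. Of 26 listed Kupffer cell identity genes 25 were tested; 22 were higher at E14, 0 were lower and 3 did not pass, with a median change of 3.81 log2 against -0.06 over all genes. The gene with the largest rise of the whole array was Cd5l, which encodes the secreted macrophage protein AIM. It read 1.73, 1.89 and 1.92 in A2 and 9.99, 10.46 and 10.32 in E14 Kupffer cells (8.41 ± 0.38, adjusted p = 1.78e-27). Spic, the transcription factor needed for iron-recycling macrophages, went from 2.62, 2.45 and 2.76 to 9.78, 9.87 and 9.83 (7.22 ± 0.36). The scavenger receptor Marco went from 2.62, 2.82 and 2.94 to 9.47, 9.41 and 9.59 (6.70 ± 0.30). In A2 these 3 genes lay at the low end of the signal range on every array, under the floor of 3.041 used to filter genes, and groups were far apart. Because samples are bulk RNA, a change in the share of cells of a type and a change of RNA per cell cannot be told apart here.

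**Figure D1:**
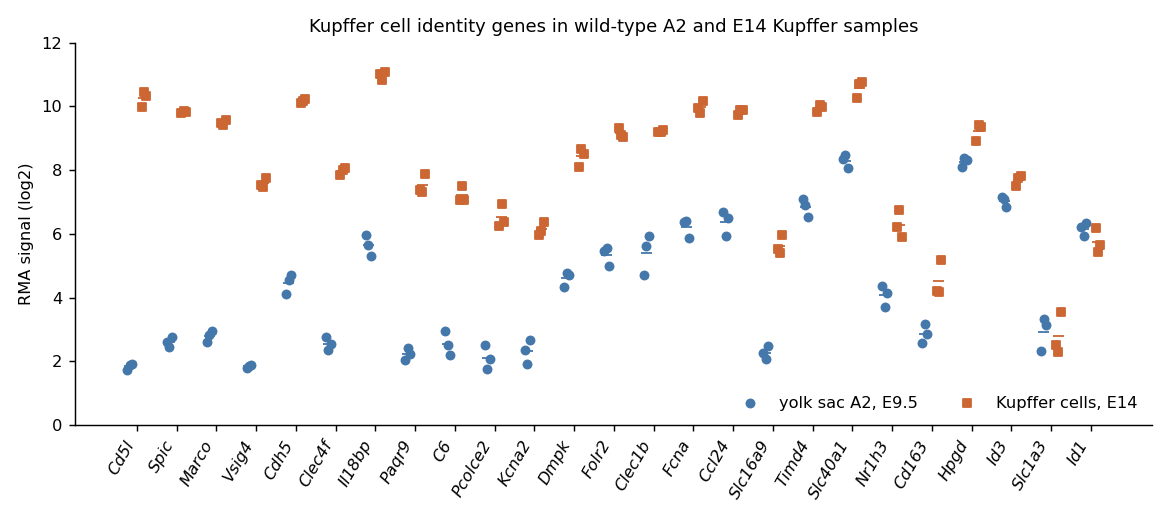
Array signal (log2) of 25 Kupffer cell identity genes, ordered by the size of the change, in 3 wild-type A2 samples (circles) and 3 wild-type E14 Kupffer samples (squares), with short lines for the means. Of the 25 genes, 22 passed the test, and Id3, Slc1a3 and Id1 did not.

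The identity genes differed in how far they had come by E14. Vsig4, the complement receptor of Kupffer cells, stood at 1.81, 1.85 and 1.90 in A2 and at 7.54, 7.48 and 7.76 at E14 (5.74 ± 0.43), but at 10.94, 10.88 and 11.01 in the adult. Clec4f, a lectin found in Kupffer cells alone among mouse macrophages, was at 2.78, 2.35 and 2.54 in A2, at 7.84, 8.02 and 8.07 at E14 (5.42 ± 0.29) and at 10.42, 10.35 and 10.21 in the adult. For both, the E14 samples lay between the A2 and the adult samples without overlap. Cd163, the haptoglobin-hemoglobin receptor, had moved less by E14, from 2.57, 3.17 and 2.86 to 4.21, 4.17 and 5.17 (1.65), and its adult mean was 9.21. By contrast, Spic and Marco had adult means of 8.78 and 8.48, below those of E14. Vcam1, an adhesion molecule of island macrophages, rose by 7.01 ± 0.46, to 9.44, 9.82 and 9.57, and its adult samples read 8.16, 7.86 and 7.46. Of the 22 risers, 20 had an adult mean no more than 1 log2 unit under the E14 mean, and 0 were back within 1 unit of A2.

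A few Kupffer genes were already present in A2. Timd4, the phosphatidylserine receptor TIM-4, read 7.11, 6.92 and 6.54 in A2 and 9.83, 10.04 and 9.97 at E14 (3.09 ± 0.40), against a mean of 2.76 in E8 erythro-myeloid progenitors and 4.72 in A1. Slc40a1, the iron exporter ferroportin, read 8.36, 8.47 and 8.06 in A2 and 10.27, 10.71 and 10.77 at E14 (2.29 ± 0.34), with 3.90 and 3.88 in the 2 earlier populations. Id3, an inhibitor of helix-loop-helix factors that Kupffer cells depend on, was at 7.17, 7.10 and 6.84 in A2 and at 7.50, 7.77 and 7.82 at E14, with no call (0.66 ± 0.40, adjusted p = 0.25). Its partner Id1 did not pass either (-0.41, adjusted p = 0.468). Nr1h3, the sterol sensor LXR alpha, rose from 4.38, 3.71 and 4.16 to 6.22, 6.75 and 5.90 (2.21).

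Other secreted and surface products of the identity list were also high at E14. Il18bp, which neutralises IL-18, rose from 5.98, 5.64 and 5.31 to 11.01, 10.84 and 11.07 (5.33 ± 0.28). C6, a component of the membrane attack complex, rose from 2.95, 2.52 and 2.20 to 7.06, 7.51 and 7.06 (4.65 ± 0.23). Folr2, the folate receptor beta, reached 9.31, 9.11 and 9.05 from 5.47, 5.57 and 4.99 (3.81). The potassium channel gene Kcna2 went from 2.36, 1.92 and 2.67 to 5.97, 6.09 and 6.36 (3.82). In Cdh5, the cadherin best known from endothelium, the signal went from 4.13, 4.55 and 4.72 to 10.12, 10.17 and 10.22 (5.70 ± 0.42). Over the 21 endothelial genes tested the list mean was 3.38 to 3.49 in A2 and 3.44 to 3.59 at E14, with 4 higher and 4 lower. The higher ones were Cdh5, the sinusoidal scavenger receptor Stab2 (1.93 ± 0.25), the adhesion molecule Pecam1 (1.02 ± 0.26) and Plvap (1.01 ± 0.34), and the lower ones Flt1, Tie1, Egfl7 and Lyve1. Of the list, 9 genes were at or under the floor on all 3 E14 arrays, Tek, Tie1, Cldn5 and Emcn among them, and 10 on all 3 A2 arrays, Stab2 and Plvap among them. The part of endothelial transcripts in the rise of Cdh5 was not tested.

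Core macrophage genes were high at both ends of the step. Their mean over 26 genes was 3.40 to 3.53 in E8 erythro-myeloid progenitors, 6.74 to 7.25 in A1, 8.32 to 8.53 in A2 and 9.07 to 9.21 in E14 Kupffer cells. The A2 samples, labelled as progenitors, thus already held these transcripts near the Kupffer level. Within the step, 14 of the 26 were higher and 3 lower, with a median change of 0.62. Adgre1, which encodes the F4/80 antigen, rose from 7.50, 7.90 and 7.72 to 9.95, 10.27 and 10.25 (2.45 ± 0.26). Mertk, a receptor for apoptotic cells, rose from 6.54, 6.42 and 6.25 to 8.90, 9.22 and 9.26 (2.72 ± 0.33), and Mpeg1, the pore-forming perforin-2, from 6.11, 6.43 and 6.62 to 8.77, 8.96 and 8.93 (2.50). Csf1r, the receptor that macrophages need for survival, changed little, from 9.67, 9.74 and 9.31 to 10.15, 10.33 and 10.52 (0.76 ± 0.18). The 3 that fell were the chemokine receptor Cx3cr1, the integrin Itgam, which is CD11b, and the sialic acid receptor Cd33. Cx3cr1 went from 10.39, 10.33 and 9.98 to 8.36, 9.0 and 8.82 (-1.51 ± 0.50, adjusted p = 0.0173), Itgam from 7.80, 7.82 and 7.46 to 5.99, 5.87 and 6.25 (-1.66 ± 0.25) and Cd33 from 8.41, 8.34 and 7.86 to 6.68, 6.07 and 6.53 (-1.77 ± 0.21). In all 3 the A2 and E14 samples did not overlap.

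**Figure D2:**
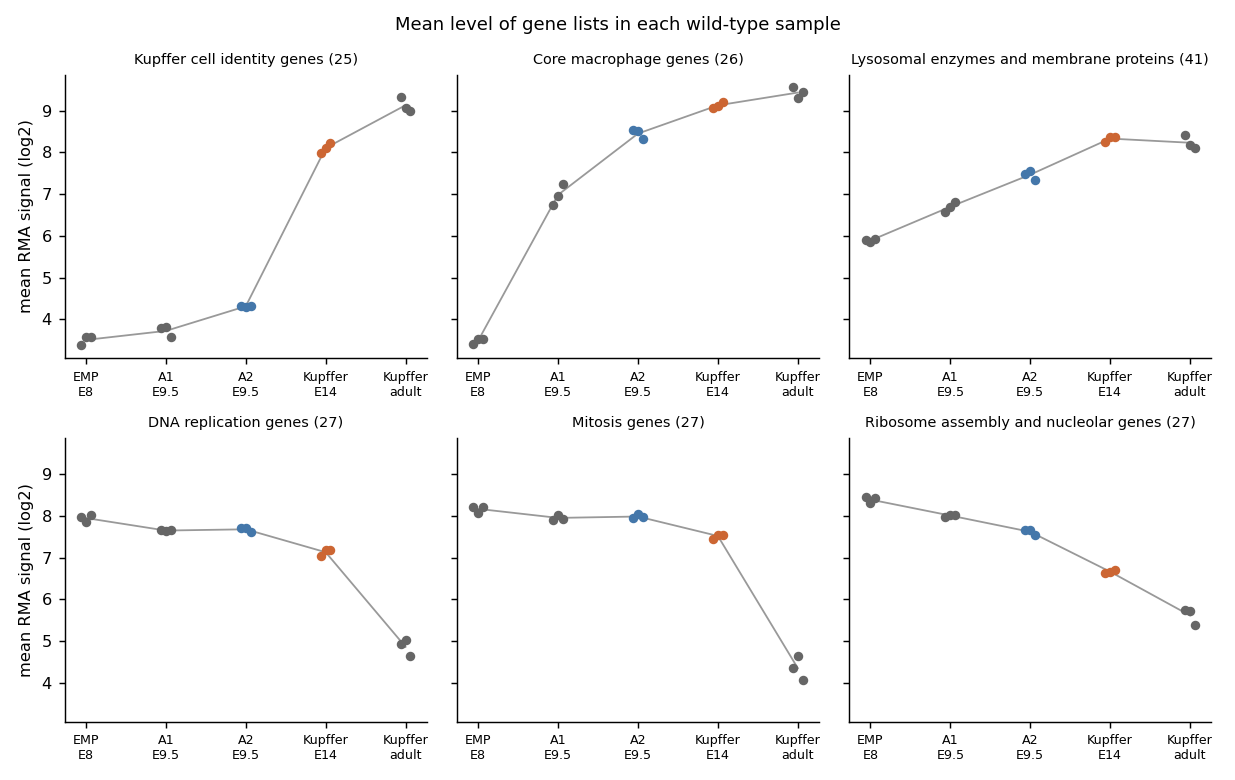
Mean array signal (log2) of 6 gene lists in each of 3 samples of wild-type E8 erythro-myeloid progenitors (EMP), A1, A2, E14 Kupffer cells and adult Kupffer cells, with the number of genes in brackets and a line through the group means. The Kupffer identity list moves most between A2 (4.30 to 4.32) and E14 (7.99 to 8.22), and the mitosis list between E14 (7.45 to 7.55) and the adult (4.06 to 4.63).

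Irf8, the gene targeted in the knockout and a regulator of macrophage development, stayed level across the step. It read 8.60, 8.64 and 8.78 in wild-type A2 and 8.71, 8.52 and 8.70 in wild-type Kupffer cells (-0.03 ± 0.25, adjusted p = 0.961). In the knockout samples the probe read 9.26, 8.98 and 8.58 in A2 and 8.12, 8.37 and 8.76 in Kupffer cells. Of these, 2 of 3 A2 samples lay above the wild-type A2 samples and 2 of 3 Kupffer samples below the wild-type Kupffer samples, and all kept a high signal. No source used here says which part of the gene the probe reads or which part was deleted, and these levels therefore check nothing about the genotype labels. Spi1, which encodes PU.1, was not called either (0.15 ± 0.15, adjusted p = 0.536).

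Of 28 macrophage transcription factors, 5 rose and 3 fell. Bhlhe40, a repressor of the helix-loop-helix family, had the largest rise, from 3.93, 3.60 and 3.59 to 6.70, 6.60 and 6.32 (2.83 ± 0.30). Rxra, the partner of LXR, rose from 5.19, 5.37 and 5.28 to 7.25, 7.54 and 7.48 (2.14), and Irf7, a regulator of interferon genes, from 5.31, 5.33 and 5.41 to 7.40, 7.21 and 7.24 (1.93 ± 0.27). Pparg (1.20) and Nr4a1 (1.46 ± 0.27) rose too. Runx1, a factor of blood cell emergence, fell from 7.46, 7.52 and 7.34 to 6.27, 6.73 and 6.69 (-0.87), Klf2 from 5.40, 5.71 and 6.49 to 4.16, 4.23 and 4.07 (-1.72 ± 0.38) and Bach1, the heme-regulated repressor, from 6.16, 6.16 and 6.61 to 5.34, 5.94 and 5.82 (-0.61 ± 0.17). These shares lie near those over all genes.

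Transcripts of other cell types of the fetal liver were high in the E14 Kupffer samples. Of 16 erythroid genes 13 were higher (median change 4.65), and of 21 hepatocyte genes 18 were higher (median 4.21), with 0 lower in either list. The erythroid list mean was 3.47 to 3.88 in A2, 7.39 to 7.90 at E14, 4.50 to 4.92 in liver CD11bhigh cells of the same stage and 2.46 to 2.58 in adult Kupffer cells. Slc4a1, the band 3 protein of the red cell membrane, read 3.95, 4.07 and 3.02 in A2 and 10.06, 9.86 and 10.03 at E14 (6.31 ± 0.38). Kel, the Kell blood group protein, read 1.93, 2.54 and 2.15 and then 8.24, 9.11 and 8.82 (6.52 ± 0.28). Both were high on all 3 E14 arrays, and in the adult Slc4a1 was at 2.50, 3.39 and 2.25 and Kel at 1.90, 1.78 and 1.82. All 13 erythroid genes that rose were within 1 log2 unit of the A2 mean, or lower, in adult Kupffer cells.

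The hepatocyte list had means of 2.83 to 3.55 in A2, 6.61 to 7.04 at E14, 4.84 to 4.93 in liver CD11bhigh cells and 7.72 to 8.17 in adult Kupffer cells. Alb, the gene of serum albumin, stood at 2.48, 2.74 and 2.59 in A2 and at 9.92, 10.53 and 10.12 at E14 (7.59 ± 0.42). It read 8.27, 8.32 and 7.86 in liver CD11bhigh cells and 11.22, 11.39 and 10.86 in adult Kupffer cells. Of the 18 hepatocyte genes that rose, 16 had an adult mean no more than 1 unit under that of E14. Afp, the fetal serum protein that yolk sac endoderm also makes, was at 3.86, 7.26 and 3.65 in A2 and at 10.26, 10.78 and 10.28 at E14 (5.52 ± 0.52), and was back at 2.87, 3.19 and 2.78 in the adult. The second A2 sample, high in Afp, also had the highest mean of the 16 visceral endoderm genes in A2, 4.20 against 3.07 and 3.10 in the other A2 samples. The part of erythroid, hepatocyte and endoderm transcripts in the changes of other genes was not tested.

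Further lists of blood cells were higher with more spread between the samples. Of 11 mast cell and basophil genes 9 rose (median 1.84), with list means of 3.54, 4.51 and 4.94 at E14 against 2.46 to 2.54 in A2. Of 13 megakaryocyte and platelet genes 11 rose (median 1.5), with means of 6.15, 5.98 and 4.53 against 3.72 to 3.90. The platelet chemokine Ppbp read 9.64, 8.58 and 5.04 at E14 and 3.67, 3.15 and 4.27 in A2 (4.06 ± 0.79). Of the E14 samples the third lay far under the others, in Ppbp and in the list mean. Prg2, the major basic protein of eosinophils and 1 of the 15 largest rises, read 8.46, 9.35 and 9.92 at E14 and 1.84, 3.53 and 1.87 in A2 (6.83 ± 0.95). Of 24 neutrophil genes 7 were higher and 2 lower, and the 7 became 3 without the first A2 sample. Ctsg, the granule protease cathepsin G, led them with 8.16, 8.45 and 8.43 at E14 against 2.48, 3.86 and 2.44 (5.42), while Mpo was not called (0.47). B cell, T and NK cell, dendritic cell and mesenchymal genes had 2 of 10, 2 of 16, 1 of 14 and 1 of 15 members higher and 0 lower. Over all genes 11.5% were higher.

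**Figure D3:**
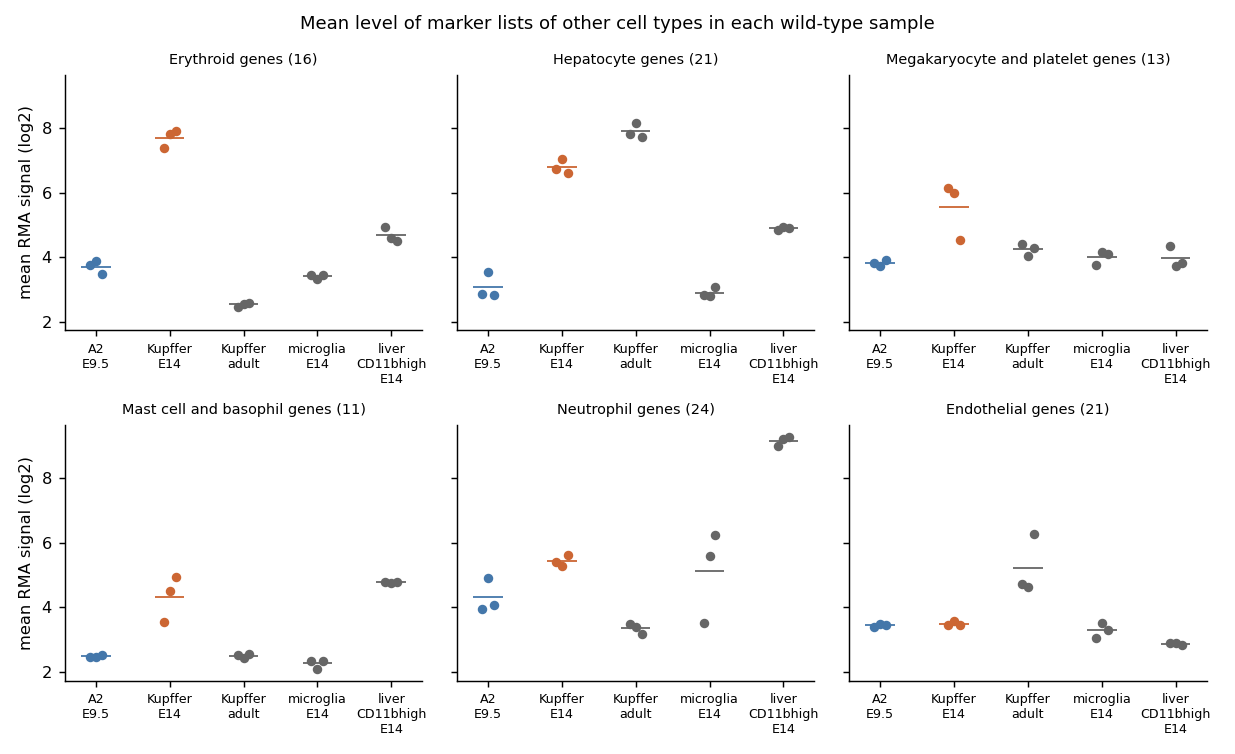
Mean array signal (log2) of marker lists of 6 other cell types in each of 3 wild-type samples of A2, E14 Kupffer cells, adult Kupffer cells, E14 microglia and E14 liver CD11bhigh cells, with lines for the group means. Erythroid genes are highest in E14 Kupffer cells (7.39 to 7.90), neutrophil genes in liver CD11bhigh cells (9.0 to 9.30), and endothelial genes differ little between A2 and E14 Kupffer cells.

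Progenitor genes moved in both directions. Of 23 regulators of progenitors and blood stem cells, 8 rose (34.8%) and 3 fell (13%), beside 11.5% and 14.1% over all genes. Cd34, a surface protein of progenitors and early endothelium, fell most, from 8.88, 9.06 and 8.78 to 5.96, 6.59 and 6.10 (-2.69 ± 0.30). The homeobox gene Meis1 fell from 6.16, 5.84 and 6.17 to 4.87, 4.77 and 4.84 (-1.23 ± 0.24), and Lyl1 fell by 0.55. Kit, the stem cell factor receptor (0.66, adjusted p = 0.118), and Myb (0.58, adjusted p = 0.226) were not called. Among the risers were factors of the red cell and platelet lineages: Gata1 went from 3.51, 2.74 and 2.81 to 5.82, 5.96 and 5.97 (2.90 ± 0.26), Gfi1b from 4.01, 4.95 and 5.54 to 7.65, 7.82 and 7.85 (2.94 ± 0.40), and Zfpm1 and Nfe2 rose by 2.40 and 2.16. Gata1 had an adult Kupffer level of 2.96, 2.47 and 2.41. These genes moved with the erythroid list, and the part of that list in them was not tested.

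Of 28 genes of iron and heme handling 20 were higher and 2 lower, with a median change of 0.93. They include Spic and Slc40a1. Blvrb, which reduces biliverdin in heme breakdown, rose from 5.55, 5.66 and 5.05 to 8.79, 9.17 and 9.02 (3.57 ± 0.21, adjusted p = 1.36e-22) and stayed at 8.48, 8.36 and 8.25 in the adult. Hmox1, the heme oxygenase that opens the heme ring, was already at 11.09, 11.20 and 10.75 in A2 and read 11.38, 11.89 and 11.83 at E14 (0.69 ± 0.26, adjusted p = 0.0405). Hfe, the regulator of iron sensing, rose from 5.55, 5.83 and 5.20 to 8.12, 8.06 and 8.37 (2.66). The transferrin receptor gene Tfrc rose from 7.21, 6.96 and 6.46 to 9.06, 9.07 and 9.20 (2.23), and Slc25a37, the mitochondrial iron importer mitoferrin-1, from 7.19, 7.01 and 6.79 to 10.08, 10.25 and 10.35 (3.23). Erythroblasts also carry much of both. In adult Kupffer cells Tfrc and Slc25a37 had means of 6.57 and 5.99, and the erythroid list was low there. The part of erythroid transcripts in the rises of Tfrc and Slc25a37 was not tested. The 2 that fell were Bach1 and the zinc and iron importer Slc39a14 (-1.19).

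Receptors and bridging proteins for the uptake of dying cells were higher in 17 of 30 cases and lower in 3, with a median of 0.89. Axl, a receptor tyrosine kinase that binds apoptotic cells through GAS6, rose from 4.83, 4.42 and 4.45 to 9.14, 9.58 and 9.74 (4.92 ± 0.39). Cd36, a scavenger receptor for oxidised lipids, went from 6.02, 5.74 and 4.82 to 7.94, 8.08 and 8.42 (2.62 ± 0.38), and Msr1 from 7.18, 6.92 and 6.77 to 8.61, 8.65 and 8.73 (1.71 ± 0.39). The bridging ligand genes Pros1, which encodes protein S, and Gas6 both read lower at E14, but only Pros1 passed. Pros1 fell from 8.26, 8.25 and 8.26 to 5.58, 5.76 and 5.95 (-2.49 ± 0.21), while Gas6 was not called (-0.85, adjusted p = 0.0915). Stab1, the scavenger receptor stabilin-1, fell from 8.63, 8.45 and 8.22 to 6.99, 7.17 and 7.16 (-1.33), and the engulfment adaptor Elmo1 fell too (-0.52). 

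**Figure D4:**
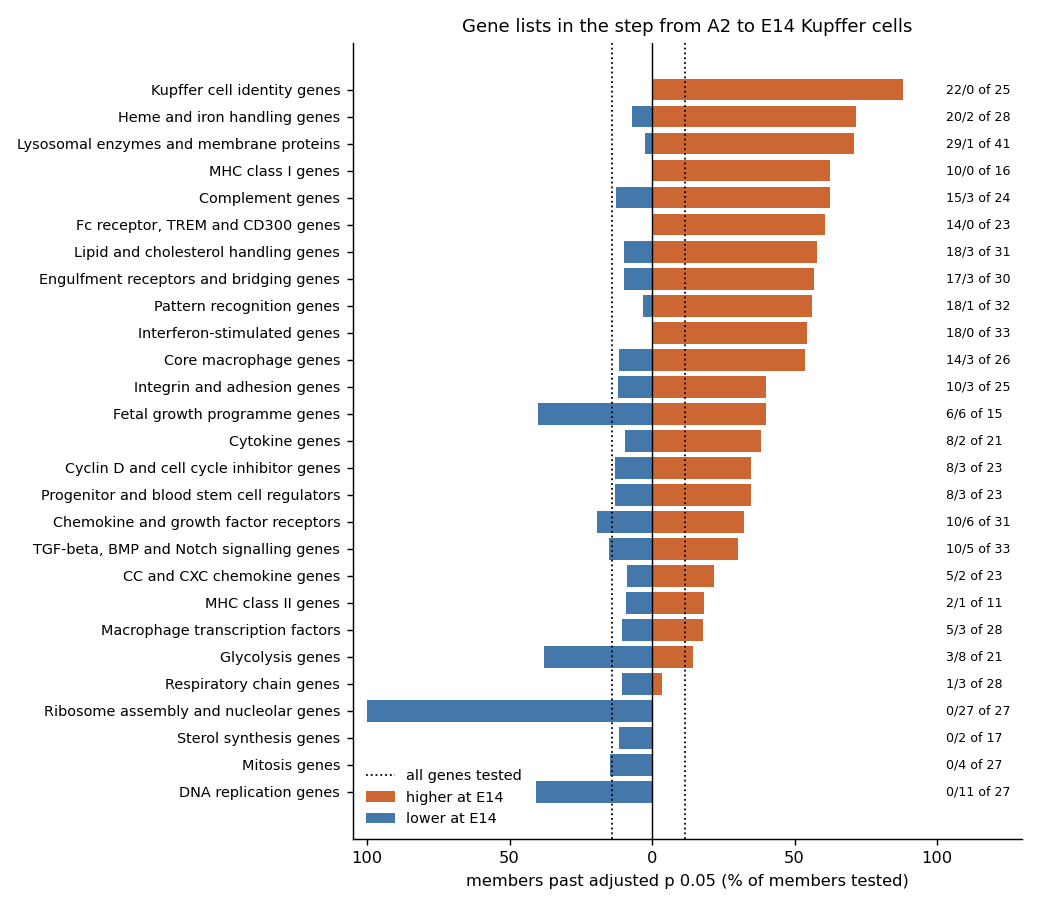
Share of the tested members of 27 gene lists that were higher (right, orange) or lower (left, blue) in E14 Kupffer cells than in A2 at an adjusted p under 0.05, with the counts at the right as higher/lower of tested. Dotted lines mark the shares over all 17076 genes, 11.5% higher and 14.1% lower, and the ribosome assembly list is lower in 27 of 27.

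Lysosomal enzymes and membrane proteins were higher in 29 of 41 cases and lower in 1, with a median of 0.75. Their list mean was 7.35 to 7.56 in A2 and 8.26 to 8.38 at E14, near the 8.11 to 8.42 of adult Kupffer cells. Ctsh, the aminopeptidase cathepsin H, rose most, from 4.85, 5.10 and 5.28 to 8.85, 9.0 and 8.96 (3.86 ± 0.35). Ctsd, the aspartic protease cathepsin D, rose from 9.83, 9.83 and 9.62 to 10.75, 11.15 and 11.19 (1.27 ± 0.13), Lgmn, the asparaginyl endopeptidase legumain, from 9.06, 8.96 and 8.52 to 10.41, 10.69 and 10.71 (1.75 ± 0.25) and Naglu, which degrades heparan sulfate, from 4.16, 5.35 and 4.49 to 6.87, 6.95 and 6.43 (2.08 ± 0.36). Gusb, the beta-glucuronidase gene, went the other way, from 9.29, 9.31 and 9.07 to 8.93, 8.70 and 8.84 (-0.40, adjusted p = 0.0473).

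Many lysosomal genes carry the E-box CACGTGA, the core of the element bound by TFEB and TFE3, in their promoters. RefSeq promoter windows of 300 bases, from 250 before to 50 after the gene start on GRCm38.p6, were matched for 34 of the 41 genes. The letters CACGTGA were found on either strand in 9 of the 34 (26.5%), against 1160 of 27025 genes with a window (4.29%). Of the 9 genes, 6 were among those that rose: Ctsa, Ctsd, Lamp1, Gaa, Naglu and Lgmn. That share is near the one over the whole list, where 29 of 41 rose (70.7%). The windows of 3 of them are shown because they were named above with their values, with matches in capitals. A run of TCACGTGA holds a match on each strand. Ctsd lies at chr7:142387778-142388077 on the minus strand, Lgmn at chr12:102439043-102439342 on the minus strand and Naglu at chr11:101069844-101070143 on the plus strand. A match describes the letters only.
Ctsd: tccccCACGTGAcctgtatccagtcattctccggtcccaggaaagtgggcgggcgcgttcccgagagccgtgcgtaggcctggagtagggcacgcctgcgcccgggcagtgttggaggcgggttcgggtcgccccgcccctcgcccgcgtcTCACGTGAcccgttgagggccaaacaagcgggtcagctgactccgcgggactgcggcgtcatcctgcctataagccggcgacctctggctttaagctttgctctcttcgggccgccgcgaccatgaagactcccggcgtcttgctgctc
Lgmn: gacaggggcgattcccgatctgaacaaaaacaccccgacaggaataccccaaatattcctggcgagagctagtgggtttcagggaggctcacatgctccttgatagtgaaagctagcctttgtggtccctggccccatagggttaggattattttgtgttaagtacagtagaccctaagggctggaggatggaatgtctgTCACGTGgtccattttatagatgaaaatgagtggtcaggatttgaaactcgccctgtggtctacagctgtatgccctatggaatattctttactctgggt
Naglu: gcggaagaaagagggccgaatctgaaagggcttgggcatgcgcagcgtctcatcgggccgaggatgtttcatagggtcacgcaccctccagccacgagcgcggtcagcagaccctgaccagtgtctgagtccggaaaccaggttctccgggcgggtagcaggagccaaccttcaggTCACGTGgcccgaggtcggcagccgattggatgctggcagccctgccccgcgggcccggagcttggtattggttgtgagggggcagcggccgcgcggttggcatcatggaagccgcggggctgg

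Lipid and cholesterol handling genes were higher in 18 of 31 cases and lower in 3, with a median of 0.90. Scd1, the stearoyl-CoA desaturase that LXR activates, rose from 2.98, 2.49 and 2.60 to 7.49, 7.33 and 7.59 (4.78 ± 0.48). Other known LXR targets rose as well: the phospholipid transfer protein Pltp went from 4.22, 4.22 and 4.72 to 8.68, 9.07 and 9.06 (4.55 ± 0.27), the exporter Abcg1 from 4.44, 4.08 and 3.54 to 8.07, 8.19 and 8.05 (4.09 ± 0.25) and Abca1 from 6.79, 6.60 and 6.83 to 8.74, 8.91 and 8.91 (2.11 ± 0.29). Mylip, the ligase that degrades the LDL receptor, rose by 2.54 ± 0.17. Fabp7 rose by 4.23 and Apoc1 by 3.10. The activity of LXR was not tested. The 3 that fell belong to leukotriene synthesis: Alox5 (-1.22), its partner Alox5ap (-0.35) and Ltc4s (-1.47). These 3 lower calls became 1 without the first or the second A2 sample or without the first Kupffer sample. Of 17 sterol synthesis genes 0 rose and 2 fell, Sqle (-0.79) and Pmvk (-0.53). The share that fell, 11.8%, is near the 14.1% over all genes. Sqle was not called without the first or the second A2 sample or without the first or the third Kupffer sample (-0.75 to -0.68), and Pmvk without any 1 of the 6 samples but the first A2 sample (-0.55 to -0.46).

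Genes of complement were higher in 15 of 24 cases and lower in 3, with a median of 1.12. C2, a protease of the classical pathway, rose from 1.98, 3.10 and 2.26 to 5.96, 5.78 and 6.58 (3.66), and Cfp, the stabiliser properdin, from 7.50, 7.30 and 7.38 to 10.14, 10.11 and 9.91 (2.66). C1qa rose from 7.96, 8.03 and 7.28 to 9.59, 9.73 and 9.76 (1.94), while C1qb (0.84, adjusted p = 0.191) and C1qc (0.99, adjusted p = 0.0529) were not called. The anaphylatoxin receptors went down: C3ar1 from 8.97, 8.87 and 8.24 to 7.33, 7.16 and 7.16 (-1.48), and C5ar1 from 6.46, 6.39 and 5.90 to 4.50, 4.90 and 5.64 (-1.23). Cfi (3.26 ± 0.36) and Hc (2.42), which hepatocytes also make, rose with the hepatocyte list. The part of hepatocyte transcripts in these and the other complement rises was not tested.

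Pattern recognition genes were higher in 18 of 32 cases and lower in 1 (median 0.98). Clec4n, which encodes the fungal receptor dectin-2, rose from 3.70, 3.81 and 4.52 to 8.97, 8.55 and 8.89 (4.79 ± 0.25). Tlr12, a receptor of the Toll family, rose from 3.58, 2.84 and 2.46 to 7.16, 7.09 and 7.23 (4.20 ± 0.32), and Nod1, a sensor of bacterial peptidoglycan, from 5.01, 5.19 and 4.68 to 8.26, 7.94 and 8.07 (3.13). The changes did not reach all Toll-like receptors: Tlr2 (0.08), Tlr7 (0.01) and Tlr9 (0.36) were not called. Fc receptor, TREM and CD300 genes were higher in 14 of 23 cases and lower in 0 (median 1.16). Treml4, an amplifier of Toll-like receptor signals, went from 3.53, 3.63 and 3.78 to 9.25, 9.02 and 9.26 (5.53 ± 0.28). Pilrb1, an activating receptor, went from 3.72, 3.42 and 3.81 to 8.08, 7.87 and 8.46 (4.48 ± 0.48).

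Interferon-stimulated genes were higher in 18 of 33 cases and lower in 0, with a median of 0.96. Their mean was 4.87 to 4.90 in A2 and 5.95 to 6.03 at E14. Oas2, which makes the second messenger of RNase L, rose from 4.37, 4.44 and 4.62 to 8.24, 8.09 and 7.88 (3.59 ± 0.30). Rtp4 rose from 5.12, 4.78 and 4.31 to 7.81, 7.61 and 7.71 (2.97) and Stat2, a subunit of the factor that interferon activates, from 5.18, 5.10 and 4.73 to 6.68, 6.69 and 6.51 (1.62 ± 0.18). Not all members moved, as Ifit3 (-0.02) and Ifitm3 (0.17) were not called. Genes of MHC class I presentation were higher in 10 of 16 cases and lower in 0 (median 1.06). H2-K1 rose from 6.34, 5.95 and 5.88 to 7.41, 7.82 and 7.94 (1.66 ± 0.20) and the peptide transporter Tap1 from 5.20, 5.36 and 5.24 to 6.68, 6.44 and 6.36 (1.23), but B2m was not called (0.10, adjusted p = 0.42). Probes of near-identical genes such as those of the H2 and Oas families may read each other's transcripts.

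MHC class II genes were low on both sides of the step, with 2 of 11 higher and 1 lower. These shares, 18.2% and 9.09%, stand beside 11.5% and 14.1% over all genes. H2-Aa read 2.34, 2.54 and 3.70 in A2 and 3.25, 2.52 and 3.00 at E14, and its adult Kupffer mean was 9.94. H2-Ab1 was the member called lower (-0.87, adjusted p = 0.0491), with an adult mean of 10.81, and it was not called without the third A2 sample (-0.50) or without the second (-0.78) or the third (-0.65) Kupffer sample.

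Among cytokine and chemokine genes, a larger share rose and a smaller share fell than over all genes. Of 21 cytokine genes 8 rose (38.1%) and 2 fell (9.52%), beside 11.5% and 14.1% over all genes. Il1a, the alarm cytokine IL-1 alpha, rose from 2.33, 2.77 and 2.20 to 7.96, 7.98 and 7.88 (5.51 ± 0.57), Il18 from 5.89, 6.08 and 6.51 to 9.22, 9.34 and 9.29 (3.12) and Igf1, a growth factor made by tissue macrophages, from 5.71, 6.34 and 5.70 to 9.07, 9.06 and 8.97 (3.11 ± 0.26). Il18 and its antagonist Il18bp were thus both higher. Tnf fell from 7.10, 6.50 and 6.74 to 5.71, 5.15 and 5.09 (-1.46), and Tnfsf9, the ligand of 4-1BB, from 5.95, 6.56 and 6.60 to 3.41, 3.63 and 3.68 (-2.80 ± 0.40). Of 23 chemokine genes 5 rose (21.7%), the platelet gene Ppbp among them, and 2 fell (8.7%). Ccl24, an attractant of eosinophils, rose from 6.69, 5.95 and 6.51 to 9.74, 9.90 and 9.89 (3.46), and Ccl3, which is MIP-1 alpha, fell from 9.42, 9.16 and 9.35 to 6.82, 6.94 and 6.88 (-2.43 ± 0.25).

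Chemokine and growth factor receptors were higher in 10 of 31 cases (32.3%) and lower in 6 (19.4%), beside 11.5% and 14.1% over all genes. The 10 became 6 without the third A2 sample, and the 6 became 3 without the second. Cxcr4, the receptor for CXCL12 that holds blood cells in marrow and liver, rose from 4.14, 3.64 and 3.82 to 5.54, 6.29 and 6.24 (2.16 ± 0.33). Ccr1, an inflammatory chemokine receptor, fell from 6.10, 5.61 and 5.87 to 3.81, 4.17 and 4.02 (-1.86 ± 0.43), and Cxcr2 fell by 2.20. The beta chain gene Csf2rb2 rose by 2.52.

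In TGF-beta, BMP and Notch signalling, 10 of 33 genes rose and 5 fell (median -0.02), and the 5 became 3 without the first Kupffer sample. The shares were 30.3% and 15.2%, beside 11.5% and 14.1% over all genes. Known targets of Notch were among the risers: Hes1 went from 2.63, 3.23 and 2.56 to 5.89, 5.54 and 5.76 (2.93 ± 0.31), and Hey1 from 3.06, 2.56 and 2.33 to 6.19, 5.93 and 6.01 (3.40 ± 0.37). Rbpj, the DNA-binding partner of Notch, fell from 7.23, 6.96 and 6.92 to 5.37, 5.14 and 5.35 (-1.75 ± 0.19), and Notch1 (-0.02) and Notch2 (-0.04) were not called. Smad6 and Smad7, inhibitors induced by BMP and TGF-beta, rose by 2.27 and 1.36, and Smad3, which carries the TGF-beta signal, fell from 6.28, 6.24 and 5.86 to 4.72, 4.46 and 4.43 (-1.59).

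Genes of DNA replication were lower in 11 of 27 cases and higher in 0, with a median of -0.56. The 11 became 7 without the first A2 sample. Mcm10, which helps to activate the replicative helicase, fell from 7.26, 7.09 and 6.72 to 5.81, 6.00 and 5.72 (-1.18 ± 0.22), and Mcm3, a subunit of that helicase, from 8.66, 8.57 and 8.38 to 7.91, 7.98 and 7.97 (-0.58 ± 0.16). Uhrf1, which maintains DNA methylation at forks, fell from 8.69, 8.74 and 8.24 to 7.30, 7.54 and 7.87 (-0.99 ± 0.31, adjusted p = 0.0128). Levels at E14 were still well over the adult ones, with list means of 7.62 to 7.71 in A2, 7.03 to 7.18 at E14 and 4.64 to 5.01 in adult Kupffer cells. Of 27 mitosis genes 0 rose and 4 fell (median -0.58), a share near that over all genes, and the 4 became 1 without the first Kupffer sample. Bub1, a checkpoint kinase, fell from 7.75, 7.73 and 7.94 to 6.50, 6.63 and 6.87 (-1.14 ± 0.28). Mki67, the proliferation marker Ki-67, read 9.19, 9.24 and 9.15 in A2 and 9.25, 9.34 and 9.56 at E14 (0.19, adjusted p = 0.739), with an adult mean of 5.66.

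The E2F site, written TTGGCGC or TTCGCGC, is a known promoter element of replication genes. Windows were matched for 23 of the 27 genes, and 1 or both forms were found on either strand in 10 of them (43.5%), against 1208 of 27025 genes (4.47%). Of the 10, 4 were among the genes that fell: Mcm3, Rfc3, Lig1 and Uhrf1. That share is near the one over the whole list, where 11 of 27 fell (40.7%). Mcm3 at chr1:20820263-20820562 on the minus strand and Uhrf1 at chr17:56304063-56304362 on the plus strand are shown as examples of each form among genes that fell, on GRCm38.p6 from RefSeq and with the match in capitals. In Mcm3 the run TTGGCGCCAA holds overlapping matches on both strands.
Mcm3: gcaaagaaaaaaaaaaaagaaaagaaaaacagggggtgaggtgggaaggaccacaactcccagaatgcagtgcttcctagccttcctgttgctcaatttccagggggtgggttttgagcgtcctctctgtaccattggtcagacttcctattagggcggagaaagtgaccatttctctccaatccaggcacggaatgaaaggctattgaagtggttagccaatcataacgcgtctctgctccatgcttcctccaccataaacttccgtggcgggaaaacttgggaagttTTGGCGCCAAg
Uhrf1: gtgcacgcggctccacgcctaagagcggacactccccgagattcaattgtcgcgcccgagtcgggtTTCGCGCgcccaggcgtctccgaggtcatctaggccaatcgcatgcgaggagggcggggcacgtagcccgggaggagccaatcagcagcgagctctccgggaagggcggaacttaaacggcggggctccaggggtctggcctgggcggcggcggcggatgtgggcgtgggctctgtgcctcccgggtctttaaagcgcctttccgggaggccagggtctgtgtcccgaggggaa

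Among D cyclins, their kinases and cell cycle inhibitors, 8 of 23 were higher (34.8%) and 3 lower (13%), beside 11.5% and 14.1% over all genes. Ccnd2, cyclin D2, fell from 8.43, 8.46 and 8.26 to 5.47, 6.07 and 5.60 (-2.67 ± 0.21, adjusted p = 8.74e-17). The CDK inhibitor gene Cdkn1b, p27, rose from 5.61, 5.78 and 5.19 to 7.13, 7.24 and 7.31 (1.70 ± 0.21), and Cdkn1a, p21, rose by 1.37. Mxd1, an antagonist of MYC, rose by 2.15, while Myc itself was not called (-0.50, adjusted p = 0.0696). The other 2 lower genes were Cdk4 (-0.55) and Cdk6 (-0.74). The 3 lower calls became 1 without the first A2 sample, or without the first or the second Kupffer sample.

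Of the ribosome assembly and nucleolar genes 27 of 27 were lower, by 0.50 to 1.38 log2, with a median of -0.96. Between 25 and 27 were lower under the alternatives run, except that 0 passed the test against a change of 1 log2 unit. Ncl, the nucleolar protein nucleolin, went from 10.42, 10.39 and 10.28 to 9.47, 9.41 and 9.77 (-0.81), Nop58, a core protein of box C/D particles, from 8.84, 8.81 and 8.99 to 7.75, 7.75 and 7.85 (-1.09 ± 0.15) and Rrp12 from 6.57, 6.38 and 6.31 to 5.36, 5.01 and 4.76 (-1.38 ± 0.29). The list mean was 8.31 to 8.44 in E8 progenitors, 7.97 to 8.03 in A1, 7.55 to 7.65 in A2, 6.62 to 6.71 at E14 and 5.38 to 5.74 in the adult. No 2 of these 5 groups overlapped in that mean.

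Among energy genes, those of glycolysis moved in both directions. Of 21 glycolysis genes 3 rose and 8 fell (median -0.45). Pfkp, the platelet-type phosphofructokinase, fell from 6.47, 6.54 and 6.57 to 5.0, 4.88 and 5.20 (-1.5 ± 0.24), and the lactate exporter Slc16a3 and the glucose transporter Slc2a3 fell by 1.25 and 1.21. Slc2a1, the glucose transporter that is abundant in erythroid cells, rose from 8.62, 8.49 and 8.19 to 9.93, 10.43 and 10.30 (1.78 ± 0.14). Of 28 respiratory chain genes 1 rose (3.57%) and 3 fell (10.7%), under the 11.5% and 14.1% over all genes. These 3 lower calls became 1 without the second or the third A2 sample.

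Fetal growth genes split evenly, with 6 of 15 higher and 6 lower. Lin28b, which blocks let-7 maturation and keeps fetal programmes on, fell from 6.63, 6.25 and 6.16 to 3.90, 3.79 and 4.18 (-2.39 ± 0.24, adjusted p = 3.05e-12), and its adult samples read 1.90, 2.21 and 2.15. Other fetal genes fell as well: Arid3a fell from 6.73, 7.0 and 6.62 to 4.82, 4.72 and 4.75 (-2.02 ± 0.24), and Igf2bp3 (-0.86) and Hmga2 (-0.83) fell too. Dnmt3b, a de novo DNA methyltransferase, fell from 6.79, 6.88 and 6.38 to 4.82, 5.54 and 4.99 (-1.57 ± 0.28). Imprinted growth genes rose: Igf2 went from 4.55, 5.44 and 4.76 to 6.17, 7.27 and 6.57 (1.75 ± 0.36), Dlk1 from 2.57, 2.63 and 2.58 to 4.44, 5.30 and 4.57 (2.17 ± 0.33) and Plagl1 from 2.07, 1.78 and 2.03 to 3.99, 4.33 and 4.77 (2.41 ± 0.52). Fetal hepatocytes also express Igf2 and Dlk1, which moved with the hepatocyte list, and that list's part in them was not tested.

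A probe named for a miRNA gene, Mir20a, was among the 15 largest falls. It went from 5.64, 5.18 and 5.65 to 2.47, 2.51 and 2.03 (-3.15 ± 0.54, adjusted p = 4.24e-06), with means of 5.94 in E8 progenitors and 5.92 in A1, and with 1.90, 3.50 and 1.81 in adult Kupffer cells. Such a probe on a gene array may read the primary transcript and does not measure the mature miRNA. Mir20a is 1 of 6 hairpins of the miR-17 cluster, which lie within 836 bases at chr14:115043671-115044506 on the plus strand (GRCm38.p6, RefSeq). Mir17, Mir18 and Mir19a were looked up after this value was seen. Mir17 read 5.92, 6.19 and 4.92 in A2 and 3.50, 4.34 and 3.35 at E14 (-1.95 ± 0.47), and Mir18 read 5.85, 5.46 and 5.50 and then 3.37, 4.08 and 3.37 (-2.0 ± 0.50). Mir19a was low in all samples and was not called (-0.37, adjusted p = 0.559). The mature sequences are shown to identify the cluster members, with the seed, bases 2 to 8, in capitals. Those of miR-17 and miR-20a share 1 seed.
mmu-miR-17-5p: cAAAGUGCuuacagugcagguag
mmu-miR-20a-5p: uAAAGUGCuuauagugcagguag
mmu-miR-18a-5p: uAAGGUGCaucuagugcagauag
mmu-miR-19a-3p: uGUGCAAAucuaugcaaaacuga

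Most of the largest falls named here were of genes outside the lists. Gap43, a growth-associated protein of the membrane, fell from 6.49, 6.30 and 6.20 to 2.27, 2.53 and 2.60 (-3.86 ± 0.36). Abcb1b, a drug efflux pump, fell from 5.60, 5.79 and 5.86 to 2.15, 2.09 and 2.40 (-3.54), and Ednrb, an endothelin receptor, from 9.33, 9.38 and 8.96 to 5.91, 5.38 and 5.99 (-3.46). F13a1, a coagulation factor subunit made by monocytes and macrophages, fell from 8.54, 8.65 and 8.73 to 5.20, 5.79 and 5.31 (-3.21), and S100a6, a calcium-binding protein, from 10.15, 10.26 and 10.43 to 6.95, 6.88 and 7.57 (-3.15). Serpinh1, a collagen chaperone, fell from 5.22, 6.42 and 5.84 to 2.69, 3.15 and 2.48 (-3.05 ± 0.37), and Gpr84, a receptor for fatty acids, from 6.62, 6.77 and 6.55 to 3.46, 3.54 and 3.85 (-3.03 ± 0.33). Ighm, the mu heavy chain gene, fell by 3.17 ± 0.29 on its brightest probe, but by 0.39 and without a call on the median of its probes. Cox4i2, an isoform of a cytochrome c oxidase subunit, fell from 6.01, 6.40 and 6.44 to 2.85, 2.69 and 3.07 (-3.41 ± 0.29), and Hapln1, which links hyaluronan to proteoglycans, from 5.32, 5.29 and 4.75 to 1.90, 1.63 and 1.79 (-3.34 ± 0.23). The serine protease gene Klk8 (-3.33 ± 0.35), the Ras activator Rasgrp3 (-3.26 ± 0.25) and the metalloprotease gene Adam19 (-3.07 ± 0.36) complete these falls outside the lists. Hspa1b, a heat shock chaperone, fell from 6.96, 7.42 and 7.81 to 5.44, 4.30 and 3.08 (-3.13 ± 0.52).

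Heat shock and immediate early genes respond to handling and were followed as a list. Of 21, 4 rose and 11 fell, with list means of 5.91 to 6.14 in A2 and 5.46 to 5.50 at E14. In adult Kupffer cells the mean was 6.89 to 7.68. Fos, an immediate early transcription factor, fell from 6.39, 5.48 and 6.28 to 3.61, 4.31 and 4.35 (-1.96 ± 0.29). Sex-linked transcripts varied within groups, with Xist at 3.88, 8.82 and 9.0 in A2 and at 9.71, 5.76 and 9.21 at E14, and none of 4 sex-linked genes was called.

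Against E14 microglia, the brain macrophages of the same stage, Kupffer identity, hepatocyte and erythroid genes were nearly all higher in E14 Kupffer cells. In this comparison 3812 genes differed (22.3%), 1809 higher (10.6%) and 2003 lower (11.7%) in Kupffer cells. Of 25 identity genes 22 were higher and 0 lower (median 4.55), and of 21 hepatocyte genes 18 and 0 (median 4.48). The erythroid list had a median of 4.37. The 6 largest of the higher genes whose samples did not overlap were Cd5l, Afp, Alb, Spic, Serpina1e and Serpina6. Cd5l read 2.62, 2.75 and 2.33 in microglia, a difference of 7.69 ± 0.38, and Spic read 2.35, 3.56 and 3.09, a difference of 6.83 ± 0.36. Of 20 microglia signature genes 0 were higher and 19 lower in Kupffer cells (median -3.50). Sall1, the transcription factor of microglial identity, was at 9.24, 9.46 and 9.19 in microglia and at 3.83, 3.04 and 2.79 in Kupffer cells (difference -6.07 ± 0.34). Siglech, a sialic acid receptor, was at 10.18, 10.35 and 10.24 against 3.86, 4.54 and 3.69 (difference -6.23 ± 0.41). Fcrls, an Fc receptor-like gene, had lost signal from 7.96, 8.07 and 7.51 in A2 to 4.92, 4.92 and 4.73 in Kupffer cells, while microglia read 10.89, 10.95 and 10.95. Within the step from A2, 2 of the 20 microglia genes rose and 6 fell. DNA replication genes were higher in Kupffer cells than in microglia in 18 of 27 cases, interferon-stimulated genes in 18 of 33 and erythroid genes in 15 of 16, each with 0 lower. Lysosomal genes were higher in 2 and lower in 19 of 41. The part of erythroid and hepatocyte transcripts in the differences from microglia was not tested.

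The E14 liver CD11bhigh macrophages came from the same organ and stage. The labels do not say whether both populations were sorted from the same livers, and the fit took all samples as independent. Here 4202 genes differed (24.6%), 1908 higher (11.2%) and 2294 lower (13.4%) in Kupffer cells, or 1653 and 2905 with array medians centred. Kupffer identity genes were higher in 22 of 25 cases and lower in 0 (median 5.01). Timd4 read 2.94, 3.23 and 2.84 in CD11bhigh cells and 9.83, 10.04 and 9.97 in Kupffer cells, a difference of 6.95 ± 0.40. Neutrophil genes separated the populations the other way, with 0 of 24 higher and 21 lower in Kupffer cells (median -3.98). Camp, an antimicrobial granule peptide, was at 10.89, 10.89 and 10.93 in CD11bhigh cells against 5.36, 3.62 and 5.66 (difference -6.02 ± 0.99), and Lcn2, which binds bacterial siderophores, at 10.17, 10.66 and 10.28 against 5.10, 4.06 and 4.91 (difference -5.68 ± 0.65). Lysosomal genes were higher in Kupffer cells in 28 of 41 cases and lower in 1, lipid genes in 22 and 3 of 31 and engulfment genes in 18 and 1 of 30. All 16 erythroid genes were higher in Kupffer cells (median 2.88). Hepatocyte genes were higher in 16 of 21 cases and lower in 0 (median 2.29). Megakaryocyte and platelet genes were higher in 10 of 13 cases and lower in 1 (median 1.43). The part of transcripts of these cells in the other differences was not tested.

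The step differed between wild-type and Irf8 knockout samples in 1052 genes (6.16%) by the interaction test: 401 (2.35%) rose more or fell less in wild type and 651 (3.81%) the other way. Among 25 Kupffer identity genes 12 had the larger change in wild type and 3 in the knockout. Clec4f read 2.81, 2.86 and 2.85 in knockout A2 and 5.16, 4.67 and 4.15 in knockout Kupffer cells, so the wild-type step exceeded the knockout one by 3.60 ± 0.41 log2. Cdh5 went from 3.88, 3.59 and 4.53 to 6.15, 5.59 and 4.50 in the knockout (step difference 4.29 ± 0.60), and Vcam1 from 2.76, 2.26 and 2.54 to 6.33, 5.25 and 4.53 (4.16 ± 0.66). Spic reached 8.47, 8.24 and 7.97 in knockout Kupffer cells, and its step did not differ by the test (1.22 ± 0.51, adjusted p = 0.16). The Kupffer list mean was 3.31 to 3.38 in knockout A2 and 5.50 to 6.12 in knockout Kupffer cells, under the wild-type 4.30 to 4.32 and 7.99 to 8.22. Of 21 hepatocyte genes, 5 had the larger change in wild type and 0 in the knockout. Their median step difference was 1.04, against 1.29 for the identity list. The hepatocyte list mean was 6.19, 6.20 and 4.74 in knockout Kupffer cells and 6.61 to 7.04 in wild type. The part of other liver cells in these differences was not tested.

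Axl had the largest excess of the wild-type step: knockout samples read 3.76, 3.69 and 3.95 in A2 and 4.04, 4.02 and 3.51 in Kupffer cells (step difference 4.86 ± 0.55, adjusted p = 1.02e-09). The groups of Kupffer cells did not overlap, while the wild-type A2 samples read 4.83, 4.42 and 4.45. Pilrb1 (4.64 ± 0.67), the calcineurin B homologous gene Chp2 (4.36 ± 0.56) and the long RNA AW112010 (4.13 ± 0.59) likewise rose in wild type, and their knockout samples covered 5.14 to 5.99, 1.94 to 2.54 and 2.03 to 3.43 in Kupffer cells. Other genes made a larger step in the knockout, with A2 samples that started lower. Slc40a1 was at 2.58, 2.62 and 2.34 in knockout A2 and at 9.74, 9.63 and 8.79 in knockout Kupffer cells (step difference -4.59 ± 0.48), and Hmox1 at 8.20, 8.10 and 7.03 and then 11.34, 11.43 and 11.26 (-2.88 ± 0.36).

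**Figure D5:**
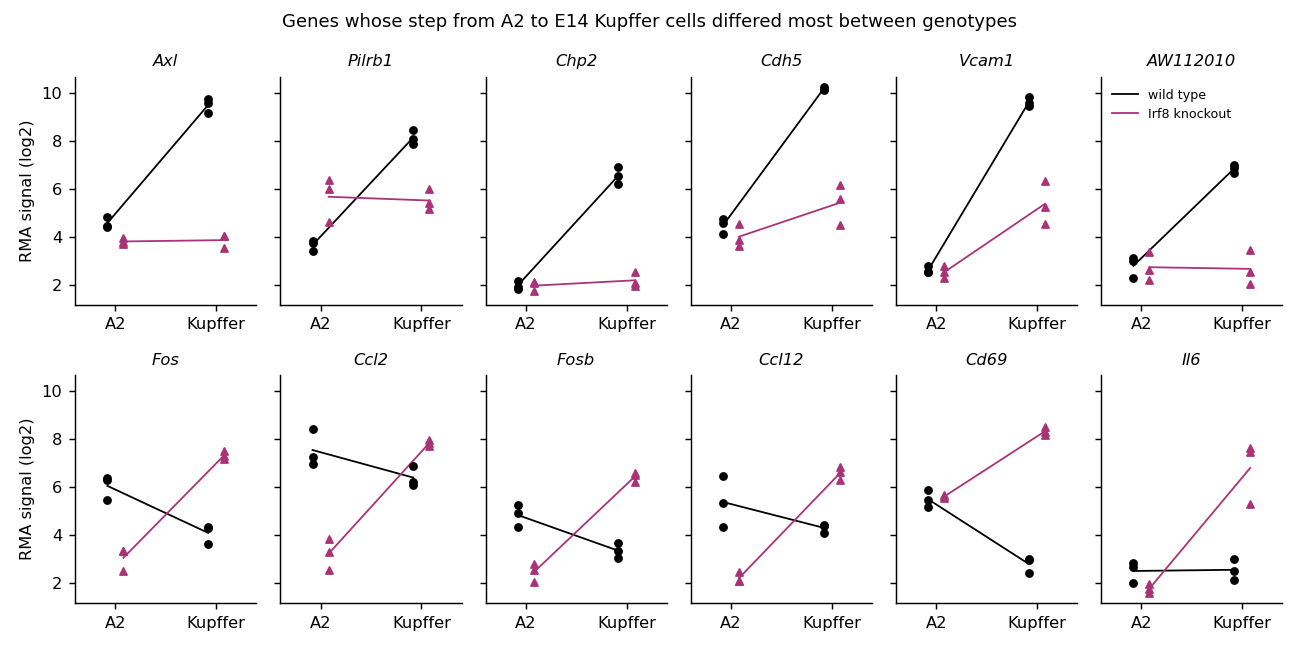
Array signal (log2) of 12 genes in A2 and E14 Kupffer samples of wild type (black circles) and Irf8 knockout (purple triangles), 3 samples each, with lines through the means. The upper 6 genes had the largest excess of the wild-type step (4.13 to 4.86 log2), and the lower 6 the largest excess of the knockout step (wild type minus knockout -6.23 to -4.97).

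Immediate early genes and chemokines led the other direction. Fos was at 3.33, 3.33 and 2.50 in knockout A2 and at 7.31, 7.18 and 7.49 in knockout Kupffer cells, where wild type fell, a step difference of -6.23 ± 0.41 (adjusted p = 1.37e-18). Ccl2, the monocyte attractant MCP-1, went from 3.84, 3.28 and 2.55 to 7.72, 7.85 and 7.96 in the knockout and from 8.44, 7.24 and 6.95 to 6.88, 6.08 and 6.22 in wild type (-5.77 ± 0.65). Cd69, an early activation antigen, went from 5.54, 5.67 and 5.61 to 8.50, 8.30 and 8.18 in the knockout (-5.42 ± 0.43), and Il6 from 1.95, 1.76 and 1.60 to 7.64, 7.45 and 5.30 (-4.97 ± 0.86). Of the 21 immediate early and heat shock genes, the wild-type step minus the knockout step was called above 0 in 0 and below 0 in 17. Among these 17, Hspa1b fell in wild type (-3.13) and moved little in the knockout (0.11). The list mean was 5.31 to 5.40 in knockout A2 and 7.42 to 7.51 in knockout Kupffer cells. The part of handling in these differences was not tested. Ribosome assembly genes had 0 and 0 of 27 called in this test. Mir20a read 5.01, 4.84 and 4.77 in knockout A2 and 4.94, 4.92 and 5.61 in knockout Kupffer cells, a step difference of -3.44 ± 0.77 (adjusted p = 0.00159).

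Adult Kupffer cells give a later reading of the genes that rose most. Of the 93 genes up by over 16-fold at E14, 56 had an adult mean no more than 1 log2 unit under that of E14, 24 were back within 1 unit of A2 or lower and 13 lay between. Of the 93, 46 were in at least 1 list: 10 in the Kupffer identity list, 12 in the hepatocyte list and 10 in the erythroid list. Gbp8, an interferon-induced GTPase, was among those outside the lists, at 1.99, 2.29 and 2.63 in A2 and 8.12, 8.09 and 8.82 at E14 (6.04). Others among the 15 largest rises were Serpina6, the corticosteroid-binding globulin of hepatocytes (6.65 ± 0.42), Serpina1e, an alpha-1-antitrypsin gene (6.19 ± 0.48), Rhag and Rhd, of the Rh complex of red cells (6.12 ± 0.22 and 6.24 ± 0.29), and Ypel4 (6.44 ± 0.30). In adult Kupffer cells Serpina1e read 10.94, 10.99 and 11.42 and Rhag 2.09, 2.11 and 2.30. Cd24a, a surface glycoprotein of immature blood and epithelial cells, read 4.56, 4.57 and 2.38 and then 11.07, 10.84 and 10.89 (7.10).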

How the data were processed

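Expression was measured on 81 arrays of 80 samples in 27 groups. The submitters' processing notes name RMA and Affymetrix Expression Console, and the deposited values are on the log2 scale. Software versions and the build were not given in the sources used here. RNA was amplified with a whole-transcript kit, per the labels' protocols. Of 41345 probes, 23521 with exactly 1 gene symbol were used, and the brightest probe per gene was kept (22180 genes). Genes above a floor of 3.041, which is percentile 50 of all values, in 2 or more samples were tested, which left 17076. The 2 runs of the second A2 knockout sample were averaged. All samples were fitted together with limma 3.58.1 (R 4.3.3), a mean per group, a variance trend and 53 residual degrees of freedom, with two-sided moderated tests and Benjamini-Hochberg adjustment at 0.05. The number of arrays limits the precision. Lists are described by counts and medians, without a set test. The comparison, the gene lists and the genes to name were chosen with earlier results of these data known. Genes named are the 15 largest rises and falls whose samples do not overlap, Irf8, and genes drawn from up to 5 per list by adjusted p and from the 6 largest per direction in the other comparisons. Other list members are given as levels, and the exceptions are said beside them. The code was tested on simulated data: shifts of 1 and 2 log2 units were recovered in 51% and 93% of genes for the step, and in 29% and 83% for the difference between genotypes. Promoter and miRNA sequences are RefSeq's, and 13188 of the 17076 genes (77.2%) matched a promoter. The letters AGGAAGT of PU.1 were searched in core macrophage genes, but only 20 of 26 had a promoter (76.9%), so that check is void. As alternatives, arrays were weighted, quantile-normalized or centred on their medians, the fit was limited to the compared groups or run without a trend, replicate numbers were blocked, floors and probe rules were changed, samples were left out in turn and changes were tested against 1 log2 unit.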

Additional observations from a re-analysis of the deposited data

Results flagged for a closer look

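The step from A2 to E14 Kupffer cells differed between wild type and Irf8 knockout in 1052 genes by the interaction test of the limma fit. The genes with the largest excess of the wild-type step were Axl (4.86 log2), Pilrb1 (4.64), Chp2 (4.36), Cdh5 (4.29), Vcam1 (4.16) and AW112010 (4.13). Those with the largest excess of the knockout step, given as wild type minus knockout, were Fos (-6.23), Ccl2 (-5.77), Fosb (-5.47), Ccl12 (-5.44), Cd69 (-5.42) and Il6 (-4.97). Fosb, of the same family as Fos, read 2.80, 2.53 and 2.03 in knockout A2 and 6.21, 6.58 and 6.50 in knockout Kupffer cells. Ccl12, a monocyte attractant, read 2.08, 2.10 and 2.44 and then 6.83, 6.61 and 6.28.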

How the results depend on the processing

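The 4 counts of called genes stayed within 1.5 times their main values under the alternatives run, with these exceptions. Against a change of 1 log2 unit, 569 genes were called in the step, 717 against microglia, 815 against liver CD11bhigh cells and 105 in the difference between genotypes, since that test asks for larger changes. The genotype difference gave 2250 genes when arrays were weighted, 1710 when the fit held only its own 4 groups and 1635 with the replicate block in that same fit of 4 groups. Leaving out 1 sample gave 3572 to 3745 genes in the step, 3100 to 3303 against microglia, 3479 to 3746 against liver CD11bhigh cells and 795 to 972 for the genotype difference. The numbers do not pair A2 with Kupffer samples: those of the same number had deviations correlated at -0.016, 0.025 and -0.008. With only A2 and Kupffer samples the block called 4999 genes, against 5162 without it. Sex-linked list means, in replicate order, were 4.89, 6.12 and 3.67 in E14 Kupffer cells and 4.61, 5.97 and 3.79 in liver CD11bhigh cells. That mean joins Xist with the Y-linked genes Eif2s3y, Kdm5d and Uty, so it does not give the sex of a sample. Whether same-numbered samples of these groups shared livers was not tested. In the fit of only these groups the block called 5594 genes, against 5656 without it. No named gene changed direction with a call. Among the lists, lower calls in mitosis went from 4 to 15 with array weights and to 20 in the fit of only A2 and Kupffer samples, with or without the block. Those in DNA replication went from 11 to 19 with array weights, to 20 in that fit and to 19 with the block added. Against a change of 1 log2 unit, 0 genes of ribosome assembly, DNA replication or mitosis were lower. With medians centred, 12 mitosis genes and 5 sterol synthesis genes were lower.

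Signal near the floor limits the size of the largest rises, because A2 levels there are close to background.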
